A study of Mus musculus with 4 samples.

Results

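Retained introns of mouse coding genes were described here from the gene annotation deposited with an RNA-seq study of macrophages. The annotation gives some transcripts the class retained_intron, which marks a transcript with an exon that runs through intronic sequence of another transcript of the gene. For each protein-coding gene, the introns of its longest protein-coding transcript were taken, and an intron counted as retained when it lay wholly inside 1 exon of a retained_intron transcript of the same gene. Genes of the Srsf family of splicing factors were left out. This gave 5135 retained introns in 2698 genes, out of 185038 introns in 19475 coding genes with at least 1 intron. The genes with a retained intron made up 13.9% of these genes, and the retained introns 2.78% of the introns. The same 2698 genes had 33235 other introns, with which the retained ones are compared below.

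The study asked how macrophages answer rhythmic mechanical force and whether that answer needs Piezo1, which encodes a stretch-gated cation channel. Its 4 groups, of 1 library each, were bone marrow-derived macrophages labelled KO (Piezo fl/fl, LysM Cre+) under cyclic pressure, KO under static pressure, WT (Piezo1 fl/fl) under cyclic pressure and WT under static pressure. All groups carried floxed Piezo1 alleles on a C57/BL6 background, the mice were littermates, and LysM-Cre acts in myeloid cells. Cells grown in M-CSF at 50 ng/mL spent 6 h in a pressure chamber, where the cyclic amplitude was about 15 mmHg, and polyadenylated RNA was read as pairs of 75 bases. The deposited annotation belongs to all groups alike, so no value below differs between genotypes or pressures. Library values were not analysed here, so neither the loss of Piezo1 nor the macrophage identity of the cells was checked, and nothing is known of sequencing depth.

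In splicing, the spliceosome recognises a donor site at the 5′ end of an intron and an acceptor site at its 3′ end, and joins the exons around them. A polyadenylated RNA that keeps an intron is often held in the nucleus or, once it reaches the ribosome, meets a stop codon inside the intron and can be removed by nonsense-mediated decay. Cells use such introns to set the amount of mRNA of some genes, among them the kinases that phosphorylate SR splicing factors, and in blood cells programmes of intron retention accompany the maturation of granulocytes. Short introns with a high GC content and weak splice sites are known to be retained more often than others.

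Piezo1 itself had 8 retained introns, and these were the last 8 of the 50 introns of its longest coding transcript (ENSMUSG00000014444, minus strand of chromosome 8, 122481698 to 122551329 on GRCm38). The 7 of them with at most 300 bases are printed because this is the gene the study removed. They are written 5′ to 3′ on the transcribed strand, with the end dinucleotides of the intron in capitals, and come from the GENCODE M21 transcripts with the same exons.
Piezo1 intron 43, chr8:122484877-122484961, minus strand: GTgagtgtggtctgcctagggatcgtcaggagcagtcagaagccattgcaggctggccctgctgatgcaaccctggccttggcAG
Piezo1 intron 45, chr8:122483412-122483485, minus strand: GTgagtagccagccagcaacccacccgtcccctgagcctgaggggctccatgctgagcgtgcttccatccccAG
Piezo1 intron 46, chr8:122483230-122483318, minus strand: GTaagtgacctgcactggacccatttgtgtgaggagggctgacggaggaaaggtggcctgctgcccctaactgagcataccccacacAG
Piezo1 intron 47, chr8:122482992-122483056, minus strand: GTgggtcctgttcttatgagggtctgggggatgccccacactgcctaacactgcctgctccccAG
Piezo1 intron 48, chr8:122482729-122482868, minus strand: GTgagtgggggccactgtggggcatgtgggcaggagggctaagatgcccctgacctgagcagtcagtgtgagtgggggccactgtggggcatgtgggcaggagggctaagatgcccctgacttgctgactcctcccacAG
Piezo1 intron 49, chr8:122482527-122482648, minus strand: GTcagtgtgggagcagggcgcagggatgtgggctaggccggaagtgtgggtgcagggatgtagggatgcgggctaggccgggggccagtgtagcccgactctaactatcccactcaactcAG
Piezo1 intron 50, chr8:122482232-122482309, minus strand: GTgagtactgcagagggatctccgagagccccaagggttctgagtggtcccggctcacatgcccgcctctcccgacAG

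All 7 printed Piezo1 introns began with GT and ended with AG, and their GC content lay between 58.4% in intron 46 and 66.2% in intron 45. Intron 44, at 1054 bases, was the long one of the 8 and had 52.2% GC. The other 7 had between 65 and 140 bases. Intron 48 held a run of 54 bases at its start that recurred without a difference 67 bases further on, so the letters of the donor site occurred again inside the intron. The 8 retained introns had a median of 87 bases, against 158 bases for the other 42 introns of the transcript, which ran from 66 to 37165 bases. Short introns occurred among the others too. Intron 37 with 66 bases, intron 32 with 70 and intron 28 with 75 lay outside the retained block.

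The retained Piezo1 introns came from 4 of its 5 retained_intron transcripts. Piezo1-004 held intron 43 in its last exon. Piezo1-008 held introns 44 to 48 together in its first exon. Piezo1-005 held intron 49 and Piezo1-006 held intron 50, so no intron was held by more than 1 transcript. In frame with the upstream coding exons, a stop codon stood in each of these introns except intron 45. The frame is that of the spliced coding transcript. For introns 45 to 48 it leaves out the retained introns before them in Piezo1-008. Exons of Ctu2, a gene of tRNA thiolation on the opposite strand, covered introns 45 to 50 over their whole length and 464 bases of intron 44, which is 44.0% of it. Ctu2 covered no base of intron 43. Without strand information, RNA of Ctu2 and of the retained Piezo1 introns 45 to 50 cannot be told apart.

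The same kind of block occurred elsewhere in the annotation. Of the 5135 retained introns, 2310 (44.99%) stood next to another retained intron, and they formed 930 runs of 2 or more neighbours. Runs of 5 or more numbered 41, of which 12 reached the last intron. Only 7 runs had 8 introns or more. The longest, with 10 introns, lay in Dcaf11, a substrate receptor of a CUL4 ubiquitin ligase, and runs of 8 lay in Adrm1, Dnase1, Gyltl1b, Pde4c, Piezo1 and Slc25a22. Among these 7, the run ended at the last intron in Adrm1, Dnase1, Piezo1 and Slc25a22.

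**Figure D1:**
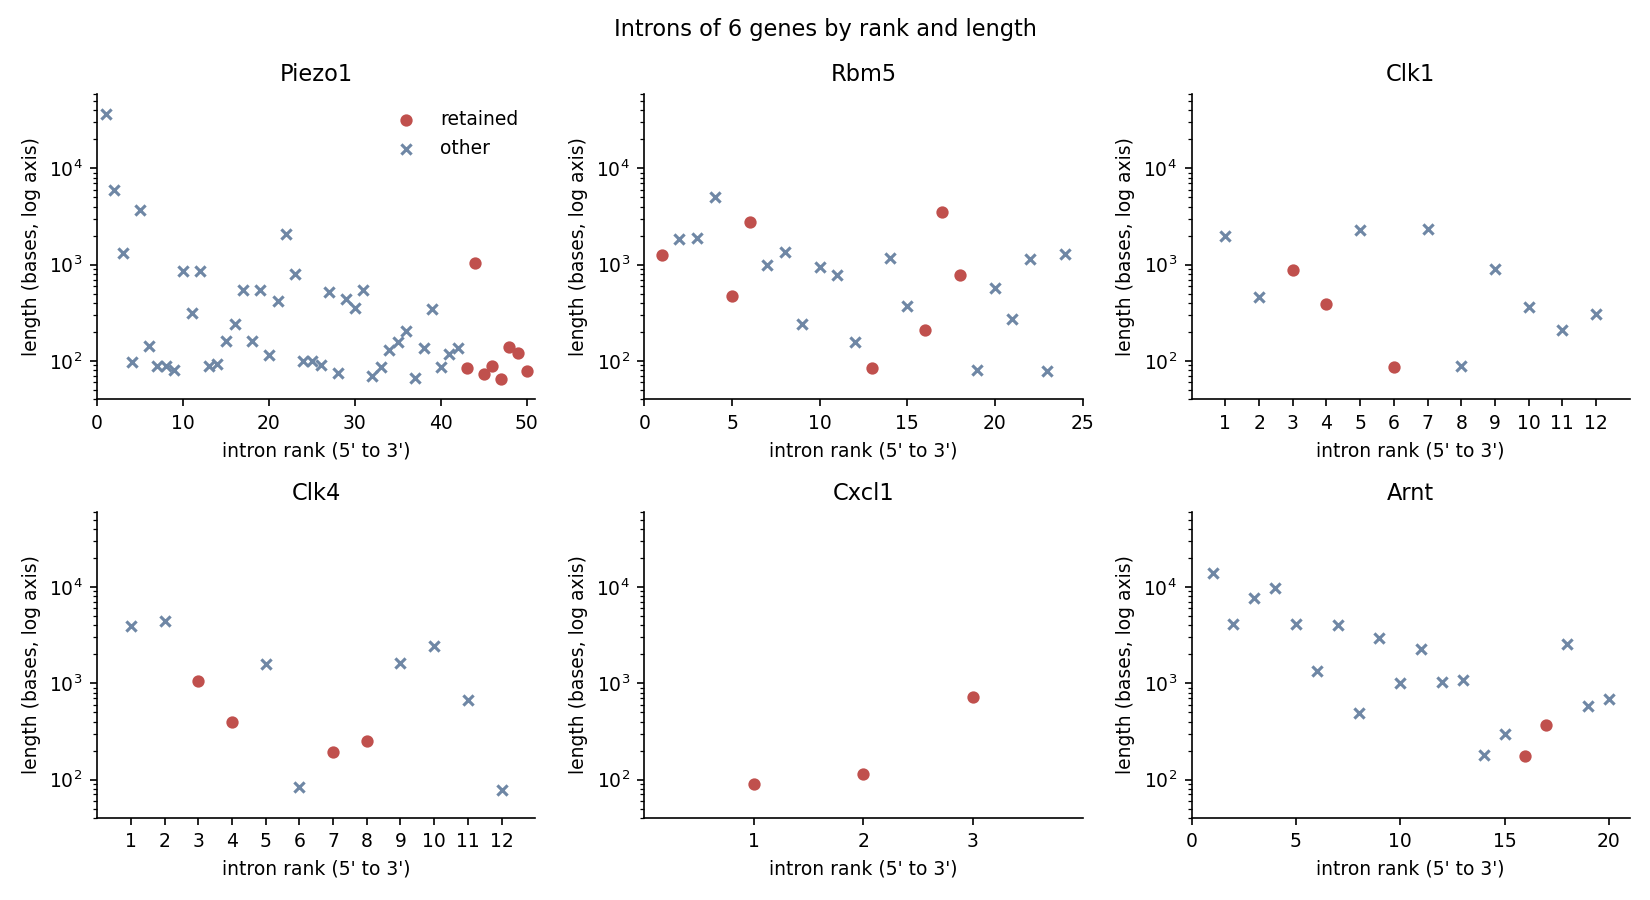
Introns of Piezo1, Rbm5, Clk1, Clk4, Cxcl1 and Arnt by rank in the longest coding transcript (horizontal axis, 5′ to 3′) and length in bases (vertical axis, log scale), with retained introns as red dots and other introns as blue crosses. The retained introns of Piezo1 are ranks 43 to 50, those of Rbm5 are spread between ranks 1 and 18, and in Cxcl1 all 3 introns are retained.

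Short length was the feature that set retained introns apart most plainly. Their median length was 249 bases (interquartile range 111 to 642.5, n = 5135), against 822 bases for the other introns of the same genes (247 to 2111.5, n = 33235). The introns of all coding genes that were not retained had a median of 1372 bases. Both kinds occurred in 2667 genes, and in 2053 of them (77.0%, exact 95% binomial interval 75.3 to 78.6%) the median of the retained introns was below that of the others. It was above in 613 genes and equal in 1. The interval covers counting error only, and genes are not replicates. The median gene had a ratio of retained to other length of 0.512, and in 655 genes (24.6%) the retained median was at most 0.25 of the other.

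The shortest intron of the gene was retained in 930 of the 2667 genes (34.9%) and the longest in 145 (5.44%), while on average 19.3% of a gene's introns were retained. Hif1a, the oxygen-sensitive subunit of the hypoxia factor HIF-1, had 1 retained intron of 82 bases, against a median of 1356 bases for its other 13. Smg9, a subunit of the complex around the decay kinase SMG1, had 1 of 86 bases, against a median of 1212 bases for the others. Other genes went the other way. In Rbm25, a splicing regulator, the retained intron had 3300 bases, against a median of 1674 bases for the others, and in Sf3b1, a core subunit of the U2 snRNP, it had 1813 bases, against 904 bases.

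**Figure D2:**
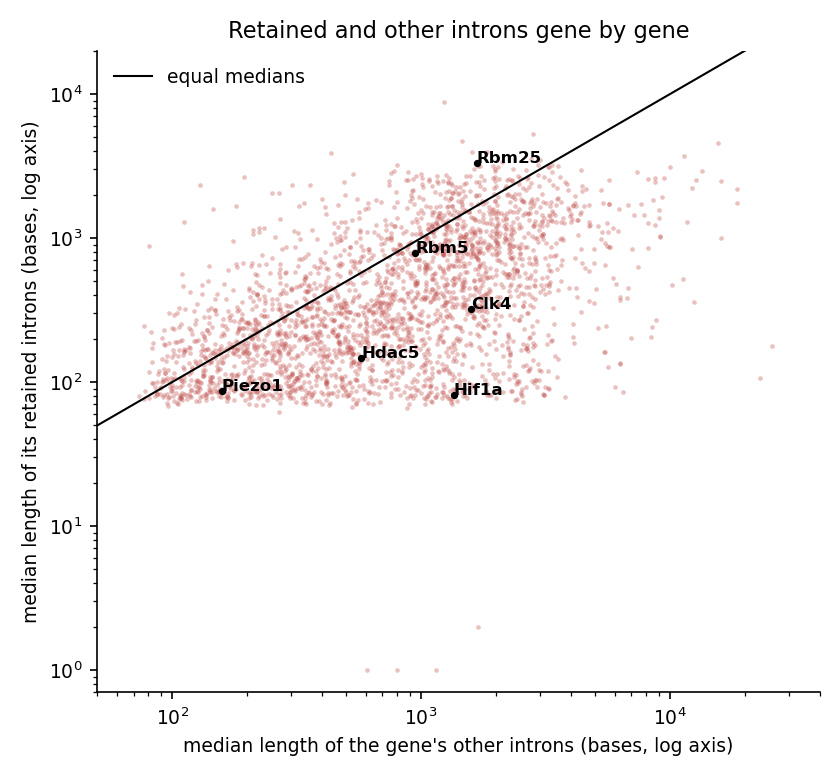
Median length of a gene's retained introns (vertical axis, bases, log scale) against the median length of its other introns (horizontal axis, bases, log scale), with 1 dot for each of the 2667 genes that have both kinds and a line of equal medians. In 2053 genes the dot lies below the line, Hif1a and Hdac5 among them, while Rbm25 lies above it.

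Among the introns of these genes, the share that was retained fell with each step in length. It was 25.6% for 50 to 99 bases (1054 of 4111), 21.7% for 100 to 199 bases (1121 of 5174) and 20.04% for 200 to 499 bases (1388 of 6925). It was 11.7% for 500 to 999 bases, 8.67% for 1000 to 1999 bases and 3.83% for 2000 to 4999 bases. At 5000 bases and over, 3 of 3083 introns were retained (0.0973%, exact 95% interval 0.0201 to 0.284%). The way the members were chosen bears on this. An intron can be held only by an exon longer than itself, and the 4836 retaining exons had a median of 609 bases, with 95% of them at or under 3401 bases. Over all coding genes, a further 12503 introns were entered by an exon of a retained_intron transcript without being held whole. Their median length was 2112 bases, against 1372 bases for all introns of coding genes that were not retained.

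**Figure D3:**
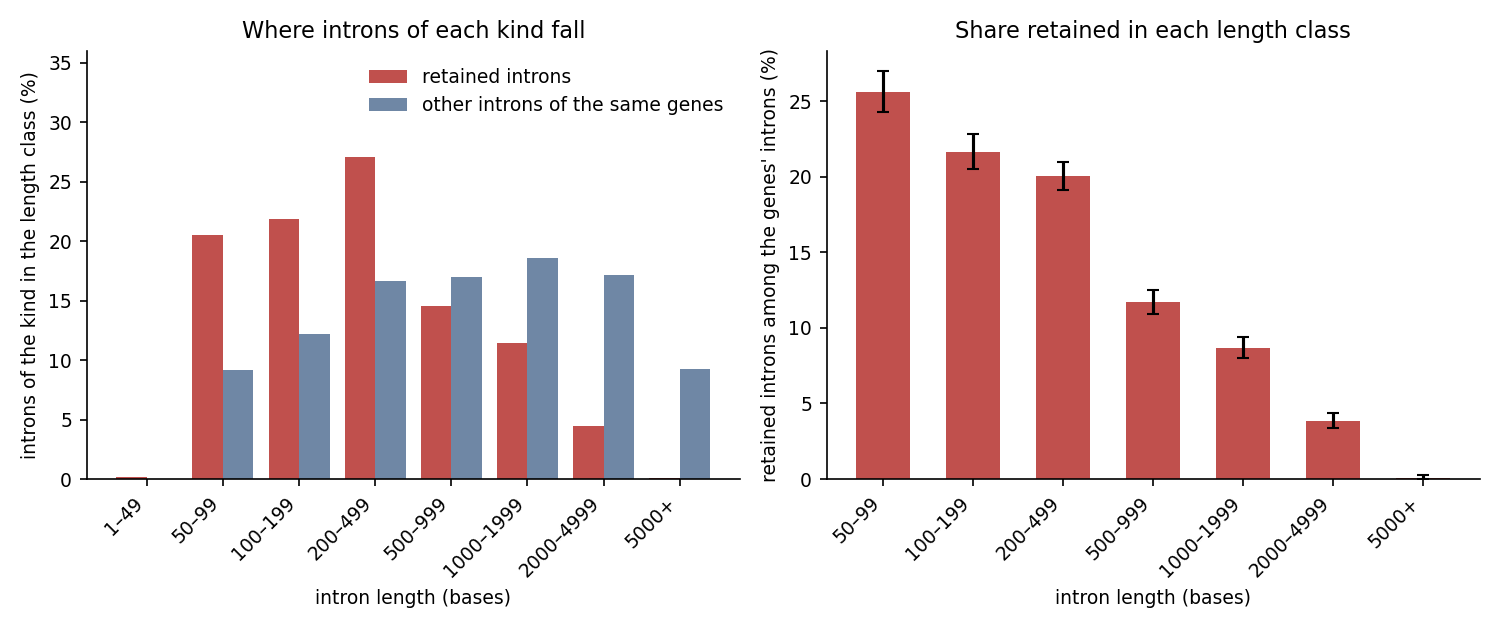
Left, the percentage of retained introns (red) and of other introns of the same genes (blue) in each length class in bases. Right, the percentage of introns in each length class that is retained, with exact 95% binomial intervals as bars, which falls from 25.6% at 50 to 99 bases to 0.0973% at 5000 bases and over.

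The length difference was present at every place along the transcript. Retained first introns had a median of 290 bases, against 2316 bases for other first introns of the same genes. In the middle, retained introns had a median of 249 bases and other introns one of 787 bases. At the last place, retained introns had a median of 233 bases and other introns one of 640 bases. The largest gap was thus at the first intron, where the other introns were longest.

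Rank along the transcript separated the kinds far less than length did. The relative rank runs from 0 at the 5′ end to 1 at the 3′ end and had a median of 0.531 for retained introns and 0.5 for other introns of the same genes. In 1349 of 2667 genes (50.6%, exact 95% interval 48.7 to 52.5%) the retained introns had the later median rank, in 1116 (41.8%) the earlier one, and in 202 the ranks were equal. This order ended when intron 1 was left out of every gene, which gave 46.4% later and 46.6% earlier. It also ended among introns of 50 to 499 bases, a range chosen after the data had been seen, with 47.0% later and 48.7% earlier.

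Both ends of the transcript had fewer retained introns than the places next to them. Of the 2698 introns at rank 1 from the 5′ end, 13.4% were retained, against 20.4% at rank 2, 20.1% at rank 3 and 19.5% at rank 4. From the 3′ end the share was 12.97% for the last intron, against 24.1% for the one before it, 23.5% at the next and 22.7% at the one after that. Towards rank 10 it fell to 11.8% counted from the 5′ end and 11.6% counted from the 3′ end. Higher ranks occur only in genes with many introns, where 1 retained intron is a smaller share of the total, so these slopes also carry the number of introns per gene. Among the introns of all coding genes the fall was smaller. From the 5′ end the share was 1.9% at rank 1, 3.1% at rank 2 and 2.8% at rank 10. From the 3′ end it was 1.8%, 3.6% and 2.7% at the same ranks.

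**Figure D4:**
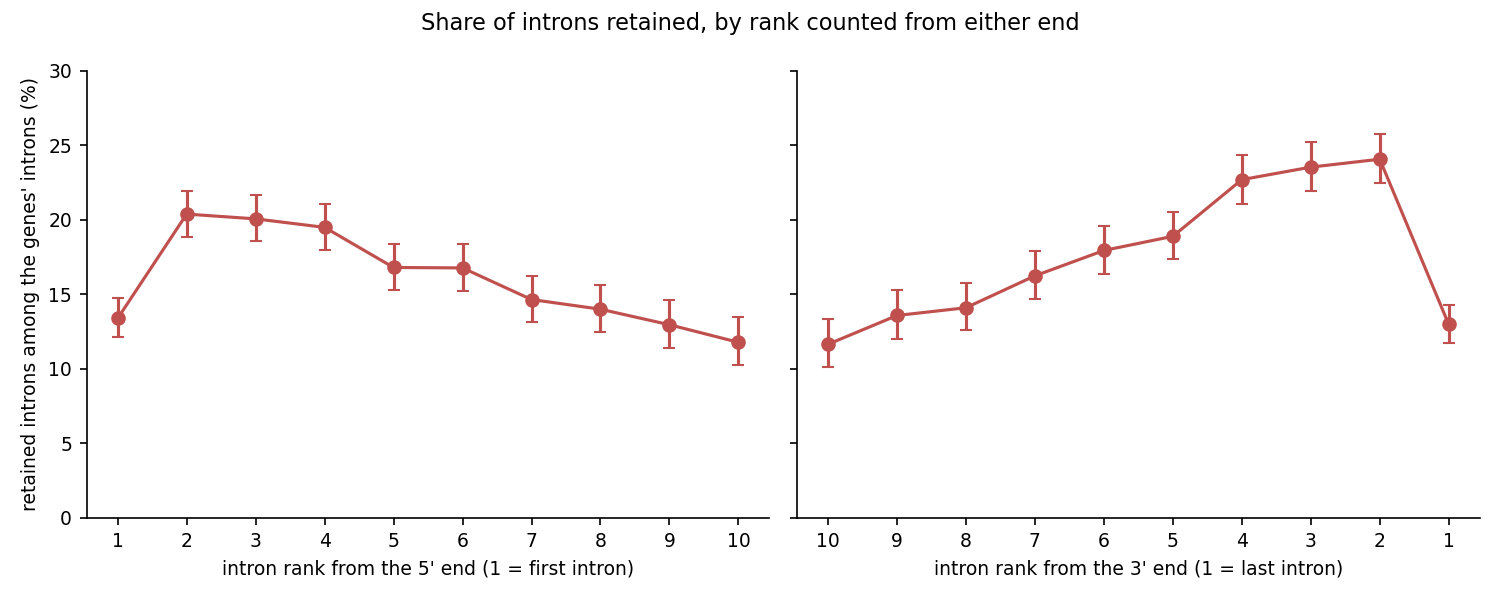
Percentage of introns that is retained (vertical axis) by rank counted from the 5′ end (left) and from the 3′ end (right, with the last intron at the far right), for ranks 1 to 10 and with exact 95% binomial intervals as bars. The first intron (13.4%) and the last intron (12.97%) lie below their neighbours (20.4% and 24.1%).

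Length and place were not independent of each other. Relative rank was cut into 5 equal parts. In the part nearest the 5′ end, under 0.2, 10.2% of introns were retained, against 15.7% between 0.6 and 0.8 and 13.2% above 0.8. Among introns of 50 to 499 bases the shares in these parts were 20.5%, 24.1% and 20.6%, a flatter profile. In that length range, intron 1 was retained in 222 of 696 cases (31.9%, exact 95% interval 28.5 to 35.5%) and the last intron in 246 of 1279 (19.2%, 17.1 to 21.5%). Without a limit on length these shares were 13.1% and 12.7%. Each gene counts once among first and once among last introns, but many times among the middle ones, of which 21.7% were retained at 50 to 499 bases and 13.4% at any length. These shares cover only genes with a retained intron. Over all coding genes with introns, 7.60% of first, 7.58% of middle and 5.06% of last introns of 50 to 499 bases were retained. There, intron 1 did not stand above the middle ones.

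**Figure D5:**
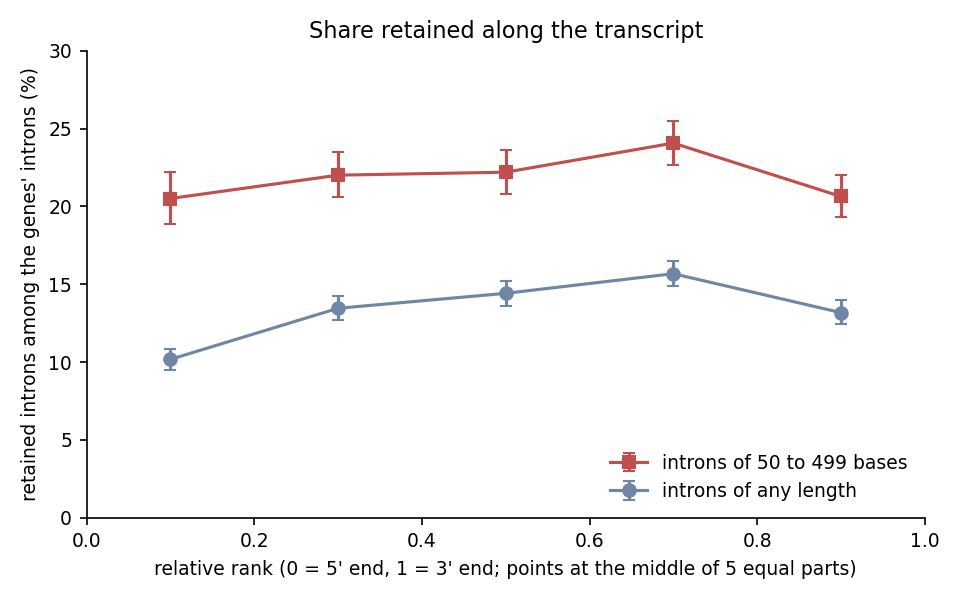
Percentage of introns that is retained (vertical axis) in 5 equal parts of relative rank along the transcript (horizontal axis), for introns of 50 to 499 bases (red squares) and introns of any length (blue circles), with exact 95% binomial intervals as bars. The lowest share over all lengths is 10.2% nearest the 5′ end, while the shares of the shorter introns lie between 20.5% and 24.1%.

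The distance to the 3′ end depended on whether introns were pooled or compared gene by gene. Over all introns, the exon bases between the intron and the 3′ end of the spliced transcript had a median of 1614 for retained introns and 2534 for other introns of the same genes. Retained introns came from transcripts with a median of 12 introns, and the others from transcripts with a median of 19, since a gene with many introns adds many to the second kind. Within genes the retained introns were nearer the 3′ end in 1443 of 2667 (54.1%, exact 95% interval 52.2 to 56.0%) and farther in 1222, with a median difference of -58.5 bases. Without intron 1 the shares were 50.4% nearer and 49.6% farther. Among introns of 50 to 499 bases they were 49.3% nearer (exact 95% interval 46.9 to 51.7%) and 50.7% farther, so that the order was lost. Counted over the genome with introns included, 52.3% of genes had the retained introns nearer.

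Most retained introns interrupted the coding sequence. They numbered 4985 (97.1%), against 96.1% of the other introns, while 128 lay in the 5′ UTR and 22 in the 3′ UTR. Of the introns in the 5′ UTR, 10.0% were retained (exact 95% interval 8.44 to 11.8%), against 13.5% of those in the coding sequence. Length was spread evenly over the 3 remainders on division by 3, with 1666, 1734 and 1735 introns, and 1666 is the number whose length is a multiple of 3. The share that overlapped an exon of another gene was 5.06% for retained introns and 5.16% for other introns, and on the opposite strand 3.54% for retained and 3.84% for other introns. A snoRNA gene overlapped 32 retained introns (0.623%) and 85 of the others (0.256%), while a miRNA gene overlapped 0.467% of retained and 0.469% of other introns.

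The sequence of 4914 retained introns (95.7%) could be read from transcripts of GENCODE M21 with the same exons, and 4906 of them had at least 50 bases. The sequence of the other introns was not analysed here, so what follows describes the retained ones alone. The ends were GT and AG in 4841 introns (98.7%) and GC and AG in 47. Another 7 had AT and AC, the ends of many introns removed by the minor spliceosome, and they lay in Fam96b, Prim1, Rnf123, Scn9a, Sms, Tcea2 and Trappc2. Donors that began GTGAGT numbered 750 and those that began GTAAGT 483. Of the 20 bases before the last 3, 75.0% were C or T at the median. The median GC content was 51.4%. It fell with length, from 57.3% at 50 to 99 bases to 43.3% at 1000 bases and over. Of the 4276 introns with 50 exon bases on each side, 2721 (63.6%) had a lower GC content than those flanks, and the medians were 51.3% in the introns and 54.0% in the flanks.

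A stop codon in frame with the upstream exon stood in 4238 of 4757 retained coding introns (89.1%), the first at a median of 36 bases into the intron. Each intron was read by itself in the frame of the spliced coding transcript, also where the intron before it was retained too. The share with a stop codon followed length. It was 68.6% at 50 to 99 bases, 84.0% at 100 to 199 bases, 97.1% at 200 to 499 bases and 99.9% at 500 bases and over. Of the 519 introns with no such stop, 114 had a length that is a multiple of 3, so that neither a stop nor a shift of frame stood in them. Hdac5, a class IIa histone deacetylase, had 5 introns without a stop among its 10 retained ones, and Piezo1 had 1 among 8.

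Kinases of SR proteins had the largest share of genes with a retained intron among the 10 gene lists used here, 5 of 7, against 13.9% of all coding genes with introns. The list is short, and its share was not tested. Clk1, Clk2 and Clk4 encode dual-specificity kinases that release SR proteins from nuclear speckles, and all 3 had introns 3 and 4 retained, the introns on either side of exon 4. These had 871 and 387 bases in Clk1, 694 and 346 bases in Clk2 and 1055 and 391 bases in Clk4. Clk1-002, Clk1-003, Clk2-004 and Clk4-014 each held both. Retention around exon 4 of Clk1 is a known switch of this kinase. Clk3, the remaining family member, had no retained_intron transcript. Srpk1 had 2 retained introns and Srpk2 had 1, while Dyrk1a had none. A short retained intron of Clk1 and one of Clk4 are shown as examples of low GC content, with the intron ends in capitals as before.
Clk1 intron 6, chr1:58417180-58417266, minus strand: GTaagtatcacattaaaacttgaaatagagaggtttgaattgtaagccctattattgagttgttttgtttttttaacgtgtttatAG
Clk4 intron 7, chr11:51275579-51275769, plus strand: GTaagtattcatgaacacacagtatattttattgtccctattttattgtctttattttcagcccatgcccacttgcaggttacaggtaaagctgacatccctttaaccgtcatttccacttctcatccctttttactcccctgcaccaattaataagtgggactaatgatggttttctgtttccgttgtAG

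The GC content was 27.6% in intron 6 of Clk1 and 38.7% in intron 7 of Clk4, below every retained intron of Piezo1. Both began with GTAAGT. Each was held by 2 transcripts.

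Among 26 genes of the spliceosome and splicing regulation, 10 had a retained intron (38.5%), against 13.9% of all coding genes with introns. They had 24 such introns among the 377 introns of the list. The retained introns had the lower median length in Rbm5, Hnrnpk, Hnrnpl, Sf3a1 and Snrpb and the higher one in Prpf40b, Ptbp1, Prpf31, Rbm25 and Sf3b1. Rbm5, an RNA-binding regulator of splice site choice, had 7 among 24 introns, of 84 to 3527 bases, from 6 of its 13 retained_intron transcripts. Prpf40b, a homologue of a yeast U1 snRNP protein, had 4. Hnrnpk and Ptbp1, which bind pyrimidine-rich RNA, had 3 each. Hnrnpl had 2, and Snrpb, Sf3a1, Sf3b1, Prpf31 and Rbm25 had 1 each. The other 16 had none, although Rbm39 had 7 retained_intron transcripts and Sf1 and Prpf3 had 4 each. Of the 10 factors of nonsense-mediated decay, only Smg9 had one, a share of 10.0% that is near the 13.9% of all genes, while Smg5 had 5 retained_intron transcripts that held no whole intron.

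Mechanically gated channels had retained introns in 5 of 14 genes (35.7%), against 13.9% of all coding genes with introns. The share by gene also carries the number of introns per gene, which was not taken into account. By intron, the retained ones were 14 of 329, against 2.78% of the introns of all coding genes, and 8 of the 14 were those of Piezo1. Besides Piezo1 these were Trpm7, a channel fused to a kinase, with introns 32 and 38 of 38, and Pkd2, the polycystin-2 channel, with introns 11 and 12 of 14. Piezo2, the channel of touch receptors, and Trpc1 had 1 each. In each of the 5 genes the retained introns had the lower median length. It was 1177 bases in Trpm7, against 1608 bases for its other introns. The 2 retained introns of Trpm7 had 78 and 2275 bases, so 1 of them was longer than that. In Pkd2 the retained median was 245 bases, against 2804 bases. In Trpc1 it was 1293 bases, against 3473 bases, and in Piezo2 1065 bases, against 2296 bases. Trpv4, Tmem63a and Tmem63b had retained_intron transcripts but no intron held whole. Trpv2, Kcnk2, Kcnk4, Kcnk10, Tmem63c and Pkd1 had no such transcript.

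Inflammatory cytokines and mediators had retained introns in 6 of 20 genes, against 13.9% of all coding genes with introns, and all 6 are chemokines except Il1b. All introns were retained in Cxcl1 (3 of 3), Cxcl3 (3 of 3), Cxcl2 (2 of 2) and Cxcl10 (2 of 2), the first 3 of which encode neutrophil attractants. Ccl2, the monocyte attractant, had intron 2 of 2 retained, and Il1b had intron 2 of 6. In Cxcl1, Cxcl2, Cxcl3 and Cxcl10, all were held by a single-exon transcript that spans the introns, and such a transcript cannot be told in this file from unspliced RNA. Of these introns, only intron 2 of Cxcl2 was also held by another transcript, Cxcl2-004. Ccl5 had a retained_intron transcript that held no whole intron, and 13 genes, among them Tnf, Il1a, Il6, Il10, Ptgs2 and Nos2, had no such transcript. Intron 1 of the neutrophil attractants is shown because the genes are neighbours on chromosome 5 and alike in sequence.
Cxcl1 intron 1, chr5:90891381-90891469, plus strand: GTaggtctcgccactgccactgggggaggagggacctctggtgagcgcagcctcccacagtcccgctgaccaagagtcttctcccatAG
Cxcl2 intron 1, chr5:90904024-90904115, plus strand: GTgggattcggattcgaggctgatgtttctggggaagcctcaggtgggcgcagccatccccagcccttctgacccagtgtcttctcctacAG
Cxcl3 intron 1, chr5:90786250-90786341, plus strand: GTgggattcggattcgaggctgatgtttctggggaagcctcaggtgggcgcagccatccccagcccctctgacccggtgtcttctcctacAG

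Intron 1 of Cxcl2 and of Cxcl3 had 92 bases each and differed at 2 positions, so that a read inside it may match both genes. In intron 1 of Cxcl1, at 89 bases, 69 bases could be matched in order to those of Cxcl2 when gaps were allowed anywhere. Unrelated sequences also share bases when matched in this way, and how many was not tested. The introns 1 and 2 of these 3 genes had between 56.5% and 64.0% GC, and a stop codon stood in frame in each. The 2 longest introns of these genes, intron 3 of Cxcl1 with 718 bases and intron 3 of Cxcl3 with 765 bases, had 39.7% and 39.35% GC.

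The hypoxia pathway had retained introns in 2 of 18 genes, Hif1a and its partner Arnt, which is close to the 13.9% of all genes. In Arnt these were introns 16 and 17 of 20, with 174 and 367 bases. Vegfa had 5 retained_intron transcripts and Ldha 2, with no intron held whole. The 7 genes of the endothelin pathway and the 7 AP-1 genes with introns had none. In lists as short as 7, a count of none cannot be set apart from the 13.9% of all genes. Of 9 macrophage markers found, only Mrc1, the mannose receptor, had one, its last intron with 997 bases. That is 11.1% of the markers, near the 13.9% of all genes. Among 9 genes chosen because their retained introns are known to be regulated, Robo3 had 5, Clk4 had 4, Clk1 had 3 and Gabbr1 had 1. These 4 genes were 44.4% of that list, against 13.9% of all genes. Since the list was chosen for known retained introns, this share is no independent result. Clk1 and Clk4 also belong to the list of SR protein kinases. Mat2a, Ogt, Lmnb1, Cdkn1b and Id3 had none by the rule used here, and Mat2a and Cdkn1b had no retained_intron transcript in the file. The single retained intron of Hif1a is printed since it lies in the gene of the oxygen-sensitive subunit.
Hif1a intron 3, chr12:73928132-73928213, plus strand: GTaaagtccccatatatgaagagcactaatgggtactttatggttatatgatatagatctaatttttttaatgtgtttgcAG

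The Hif1a intron had 30.5% GC and was held by the last exon of 1 transcript, Hif1a-004, 3966 exon bases from the 3′ end. It was intron 3 of 14 and held an in-frame stop codon.

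The genes with the most retained introns were Msto1 and Stab1, with 11 each. In Msto1, a gene of mitochondrial distribution, they were 11 of 14 introns, and the single transcript Msto1-005 held all of them. In Stab1, a scavenger receptor of macrophages and sinusoidal endothelium, they were 11 of 68, and 10 of the 11 lay at rank 51 or later. Dcaf11, Gyltl1b (a glycosyltransferase of dystroglycan), Hdac5, Mroh1 and Wdr90 had 10 each. Cul9 (a cullin), Rhot2 (a GTPase of the outer mitochondrial membrane) and Traf7 (a ubiquitin ligase) had 9 each. The median retained intron had 88.0 bases in Stab1, against 177 bases for its other introns. In Traf7 it had 88.0 bases, against 495 bases for the others, and in Rhot2 84.0 bases, against 104 bases. In Gyltl1b it was longer, with 155 bases, against 131 bases for the others. Rhot2 and Wdr90 overlap at their ends on chromosome 17.

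Most genes had a single retained intron, 1491 of 2698 (55.3%), and 155 had 5 or more. Of the retained introns, 4412 (85.9%) were held by 1 transcript and 723 by more than 1. The most, 6 transcripts, held intron 1 of Ager, the receptor for advanced glycation end products, intron 9 of Arhgap4 and intron 1 of U2af1l4, a relative of the small U2AF subunit that reads the acceptor AG. Next came intron 9 of Ager and intron 4 of Krtcap3 with 5 each. In 31 genes every intron was retained, 20 of which had only 1 or 2 introns. Besides the chemokines they included Gpx1, Cox17, Crip1, Fabp4, Rgs1, Rpl9, Rpl34 and, with 8 introns, Dnase1.

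The longest retained introns were intron 2 of Ube2d3 with 15387 bases, intron 22 of Hace1 with 8856 bases, intron 3 of Sorbs2 with 5284 bases and intron 8 of Crtc1 with 4690 bases. Intron 2 of Tmed7 followed with 4560 bases. Each of the 5 was held by 1 transcript, and the transcript that held the intron of Ube2d3, a ubiquitin-conjugating enzyme, had a single exon. The shortest of at least 50 bases were intron 2 of Gfra4 with 53 bases, intron 1 of Siglecf with 62, intron 10 of Adck5 with 63, intron 47 of Piezo1 with 65 and intron 3 of Rgs11 with 65. The Gfra4 intron had 84.9% GC and no in-frame stop codon.

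A further 8 members had fewer than 50 bases, too short for splicing, and 3 of them lay in the ornithine decarboxylase antizyme genes Oaz1, Oaz2 and Oaz3. Antizyme is made only when the ribosome shifts frame at the end of its first reading frame, a shift that polyamines promote. The gaps had 4 bases in Oaz1, 1 base in Oaz2 and 4 bases in Oaz3. They are printed because they show members of the rule that are no introns, with the gap in capitals.
Oaz1 gap in intron position 2, flanked by 20 bases of exon on each side, chr10:80828292-80828295, plus strand: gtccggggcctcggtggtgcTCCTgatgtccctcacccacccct
Oaz2 gap in intron position 2, flanked by 20 bases of exon on each side, chr9:65686272-65686272, plus strand: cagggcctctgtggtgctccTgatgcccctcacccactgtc
Oaz3 gap in intron position 2, flanked by 20 bases of exon on each side, chr3:94436034-94436037, minus strand: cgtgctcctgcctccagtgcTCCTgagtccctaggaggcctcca

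In all 3 the gap lay within or at the start of the letters TCCTGA, which end in the stop codon TGA, and its length left a remainder of 1 on division by 3. The other 5 such members lay in Acbd4, Kndc1 and Lig1 with 1 base each, Gm11744 with 2 and H2-Q7 with 4. With all 8 left out, 76.9% of genes had the shorter retained introns.

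At least 1 exon that held the intron was internal to its transcript for 2166 introns (42.2%). Some of these were also held by an exon of another kind. Among the rest, the holding exon was the last for 1463 introns (28.5%), the first for 1076 (21.0%) and the only one for 341 (6.64%). A further 89 had holding exons of more than 1 kind, none of them internal. A first or last exon has an end that is the end of the transcript and not a splice site, and an only exon has no splice site, so for those introns the annotation shows that the RNA ran through the intron, and not that both neighbouring exons were spliced. Of the 4836 retaining exons, 3963 held 1 intron, 652 held 2 and 221 held 3 or more, up to 10 in Dcaf11. The exon reached past the intron by a median of 109 bases on its shorter side. It did so by under 10 bases for 89 introns. Over all coding genes, 93 introns that were entered but not held were missed by 1 to 10 bases.

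The class of a transcript and the presence of a whole retained intron were different things in this file. Coding genes had 15448 retained_intron transcripts, in 6632 genes, and 4401 of these transcripts (28.5%) held at least 1 whole intron of the longest coding transcript. The other 11047 held none. Manual annotation by the Havana group was the sole source of 15405 (99.7%). In GENCODE M21 of the same build, the same rule gave 7199 retained introns in 3755 genes. The 5010 introns in both sets were 97.6% of the deposited set and 69.6% of the M21 set.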

How the data were processed

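The deposited file used here is a gene annotation on GRCm38, and its values are coordinates (unit: other), 1-based starts and ends that the authors deposited without a header; the sources used here do not give its release or how it was made. Cufflinks, TopHat2, Bowtie2, FastQC and CASAVA 1.8 are named, with the builds mm10 and GRCm38 and no roles, per the submitters' processing notes. Whether the kit kept strand is likewise not stated. The file holds 0 columns of library values.

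The longest protein-coding transcript of a gene was taken by summed exon length. Relative rank is the rank minus 0.5, divided by the number of introns. Distance is the exon bases downstream of the intron. Per-gene medians were compared in genes with both kinds. Exact 95% binomial (Clopper-Pearson) intervals cover counting error only. No test was run, since introns and genes are not replicates. Sequences came from retained_intron transcripts of GENCODE M21 with identical exons. Python 3.11.15, numpy 2.4.6, scipy 1.17.1 and matplotlib 3.10.9 were used. Tested on simulated data of 400 gene models, all 2721 introns were given their right class, 410 of them retained.

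The members, the 10 gene lists and the rule for named genes were chosen with earlier results of these data known. The rule names Piezo1, the 10 genes with the most retained introns, the 5 shortest of at least 50 bases, the 5 longest, the 5 held by the most transcripts and the leading member of each list. Other genes named were chosen after their values were seen.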

Additional observations from a re-analysis of the deposited data

How the results depend on the processing

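The shorter length of retained introns kept its direction under every alternative run, with 73.4 to 89.9% of genes. Without intron 1, 75.3% of genes had the shorter retained introns, 46.4% the later rank and 50.4% the nearer 3′ distance. The later rank occurred in 1155 genes and the earlier one in 1160, so that the order of ranks was lost. With other introns only inside the span of the retained_intron transcripts, 53.6% were later and 57.0% nearer. Genes with exactly 1 retained intron held 1491 introns, with 78.8% shorter. The mean in place of the median gave 89.9% shorter. Chosen after seeing the data, at least 1 retaining exon internal to its transcript left 2166 introns, with 73.4% shorter. Introns of 50 to 499 bases, also chosen after seeing the data, gave 47.0% later against 48.7% earlier. They gave 49.3% nearer against 50.7% farther, so both orders were lost. The causes were not tested. The other 42 values kept their direction and lay within the interval of the reported share or within 1.5 times the reported count. Rank counted from either end gives the same order within a gene by construction.

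No paired analysis was possible because the values are those of 1 annotation shared by all libraries, and leaving out a library changes nothing. The annotation shows which introns annotators saw retained in any tissue, not how often these macrophages retain them.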
